A study of Mus musculus with 12 samples.

Results

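Transcripts of 36 genes for lysosomal hydrolases and lysosomal membrane proteins were followed in 2 kinds of mouse cell grown in vitro, with and without bisphenol A (BPA). PGCLCs, or primordial germ cell-like cells, model the first germ cells, and EpiLCs, or epiblast-like cells, are the state they are made from. The genes were taken by symbol from a list of known lysosomal genes and were linked by Ensembl ID to the count files. That list was chosen with earlier results of these data known. All 36 were found, out of 21728 genes listed in any of 12 mRNA libraries. There were 4 groups of 3 libraries: BPA PGCLCs, untreated PGCLCs, BPA EpiLCs and untreated EpiLCs. All came from C57BL/6 embryonic stem cells with the reporters Blimp1-mVenus and Stella-ECFP (BVSC), grown in 2i plus LIF and moved to EpiLC culture for 48 h. Medium with BPA at 100 nM, a plastics monomer with oestrogenic activity, was given to EpiLCs 24 h after seeding and left on for 24 h. PGCLCs were made from EpiLCs in aggregates, and day 5 cells positive for both reporters were sorted. The labels do not say whether PGCLC medium held BPA too, and they call the untreated EpiLC libraries water controls. The question was whether BPA changed gene expression in EpiLCs and in the PGCLCs derived from them.

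Lysosomes are acidic organelles in which hydrolases break down proteins, glycans and lipids delivered by endocytosis and autophagy. Most of the enzymes are made as inactive precursors, are carried to the lysosome by mannose phosphate receptors and are matured there by proteases. Many lysosomal genes carry an E-box-like promoter element bound by TFEB and related factors, and cells with heavy endocytic traffic, such as visceral endoderm and macrophages, have abundant lysosomes.

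Each library had 11785338 to 34309195 counts assigned to genes and listed 14323 to 17468 genes, none with under 10 counts. An unlisted gene was read as 0 and can hold up to 9 counts. All 36 members were listed in 11 libraries, and Ctsh was unlisted in BPA EpiLC replicate 2. Levels are CPM (counts-per-million) on 1 TMM scale over the 12 libraries, log2 changes are ± SE, and n = 3 libraries per group throughout. "Rose", "fell" and "called" refer to an adjusted p under 0.05 in edgeR's quasi-likelihood test with Benjamini-Hochberg adjustment over all genes tested. No label tells whether replicates came from separate cultures, so a p-value here measures the spread between libraries, which may be technical. Untreated EpiLC replicate 3 differed from the rest of the EpiLC libraries: cytosolic ribosomal protein genes took 14.3% of its assigned counts, against 8.35% to 9.41% in the other 5, and its description carries a different number and replicate from its title. BPA PGCLC replicate 3 stood apart from BPA PGCLC replicates 1 and 2 in the genes described here. Over all genes, a chi-square per degree of freedom between the counts of BPA PGCLC replicates 1 and 2 was 3.76. It was 46.1 and 45.1 between each of these and replicate 3, and 18 to 21.4 among untreated PGCLC libraries. In BPA EpiLCs it was 3.55 for replicates 1 and 2, and 7.92 and 8.1 to replicate 3. Whether such close libraries are independent is not known. The library descriptions of BPA and untreated PGCLCs follow different naming schemes, as do those of PGCLCs and EpiLCs, so a difference in library handling and the group difference cannot be told apart. A summary row for reads aligned to more than 1 place is present in all 3 BPA PGCLC files (0.455% to 0.522% of the file's counts) and in BPA EpiLC replicate 2 (9.82%), and in no file of an untreated library. In PGCLCs this row therefore runs with treatment, as do the ambiguous reads (4.54% to 5.05% in BPA PGCLCs, against 5.75% to 6.07% in untreated PGCLCs), and their part in the results was not tested. Exons of 12 members overlap an antisense gene and those of 3 members (Ctsl, Ctsd and Glb1) overlap a gene on the same strand. Without a stated strand setting for the read counting, reads of such neighbours may be mixed.

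Promoters of 5 members are shown because the genes are studied as one group and the element of TFEB-type factors is known from this gene class. RefSeq promoter sequences (build GRCm38.p6, 250 bases before to 50 after the start site) were found for 32 of the 36 members. The letters CACGTG, which read the same on both strands, were present in 13 of these 32 members. By promoter, this was 37.1% of the 35 member promoters, against 7.15% of all 32851 promoters of 300 bases. The longer TCACGTG or CACGTGA was present in 11 members, or 31.4% of member promoters against 3.77% of all promoters. The palindrome TCACGTGA, which contains both shorter forms, was present in 4 members, or 11.4% of member promoters against 0.974% of all promoters. These 4 are Ctsa (chr2:164833523-164833822, plus strand), Ctsd (chr7:142387778-142388077, minus strand), Gla (chrX:134600956-134601255, minus strand) and Mcoln1 (chr8:3500269-3500568, plus strand). Lamp1 (chr8:13158911-13159210, plus strand) held CACGTG 4 times. Each is written on its gene's strand, with CACGTG and any flanking T or A of the longer forms in capitals.
Ctsa: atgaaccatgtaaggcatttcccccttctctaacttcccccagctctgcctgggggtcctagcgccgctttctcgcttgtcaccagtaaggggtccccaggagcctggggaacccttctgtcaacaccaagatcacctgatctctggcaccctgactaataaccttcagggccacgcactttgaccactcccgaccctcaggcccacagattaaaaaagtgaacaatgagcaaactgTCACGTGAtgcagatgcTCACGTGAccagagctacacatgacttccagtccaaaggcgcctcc
Ctsd: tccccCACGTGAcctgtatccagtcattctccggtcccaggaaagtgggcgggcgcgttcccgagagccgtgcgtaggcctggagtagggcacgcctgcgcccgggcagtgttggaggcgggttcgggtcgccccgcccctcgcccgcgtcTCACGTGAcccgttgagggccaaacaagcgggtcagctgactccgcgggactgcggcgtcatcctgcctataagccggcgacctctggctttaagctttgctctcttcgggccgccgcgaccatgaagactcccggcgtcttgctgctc
Gla: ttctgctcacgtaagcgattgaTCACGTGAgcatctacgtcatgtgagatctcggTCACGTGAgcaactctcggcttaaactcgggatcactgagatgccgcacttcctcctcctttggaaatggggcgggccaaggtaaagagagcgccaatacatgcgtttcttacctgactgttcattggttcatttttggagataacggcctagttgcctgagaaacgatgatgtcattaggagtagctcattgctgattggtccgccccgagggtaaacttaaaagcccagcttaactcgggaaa
Mcoln1: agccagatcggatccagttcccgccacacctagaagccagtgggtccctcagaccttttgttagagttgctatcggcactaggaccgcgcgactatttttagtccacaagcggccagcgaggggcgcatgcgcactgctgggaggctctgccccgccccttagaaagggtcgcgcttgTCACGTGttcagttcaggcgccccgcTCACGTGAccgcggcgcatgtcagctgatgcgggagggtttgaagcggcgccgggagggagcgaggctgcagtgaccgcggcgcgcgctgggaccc
Lamp1: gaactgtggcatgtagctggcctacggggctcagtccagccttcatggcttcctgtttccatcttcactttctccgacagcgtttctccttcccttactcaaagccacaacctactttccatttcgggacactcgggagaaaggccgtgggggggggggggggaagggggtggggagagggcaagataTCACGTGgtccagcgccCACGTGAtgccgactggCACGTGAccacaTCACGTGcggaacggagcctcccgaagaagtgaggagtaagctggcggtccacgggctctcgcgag
In Ctsa the first match began 12 bases before the start site and the second 5 bases after it. In Lamp1 the matches lay between 61 and 15 bases before the start site. A match describes these letters and not binding of a factor.

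Lysosomal transcripts were more abundant in BPA PGCLCs than in untreated PGCLCs. Of the 36 members, 20 rose and 0 fell, against 8.13% of all 16753 tested genes called higher and 5.72% called lower. The median member change was 0.57 on the log2 scale, against 0.01 for all genes tested. The summed level of the 36 members was 8189, 8161 and 4763 CPM in BPA PGCLCs, against 3433, 3215 and 3146 CPM in untreated PGCLCs. As a share of assigned counts, the 36 members took 0.800%, 0.808% and 0.491% in BPA PGCLCs, against 0.340%, 0.323% and 0.311% in untreated PGCLCs. The groups did not overlap, and BPA replicate 3 lay between the other BPA libraries and the untreated ones. The 4 genes Ctsl, Lgmn, Ctsb and Ctsh made up 61.5% of the difference between the mean summed levels. In these sorted bulk samples, more cells of a type and more RNA per cell cannot be told apart. Levels of visceral endoderm markers moved in the same libraries: the 20 markers summed to 12110, 12710 and 5953 CPM in BPA PGCLCs, against 2136, 1611 and 1390 CPM in untreated PGCLCs, and their part in the lysosomal differences was not tested.

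**Figure D1:**
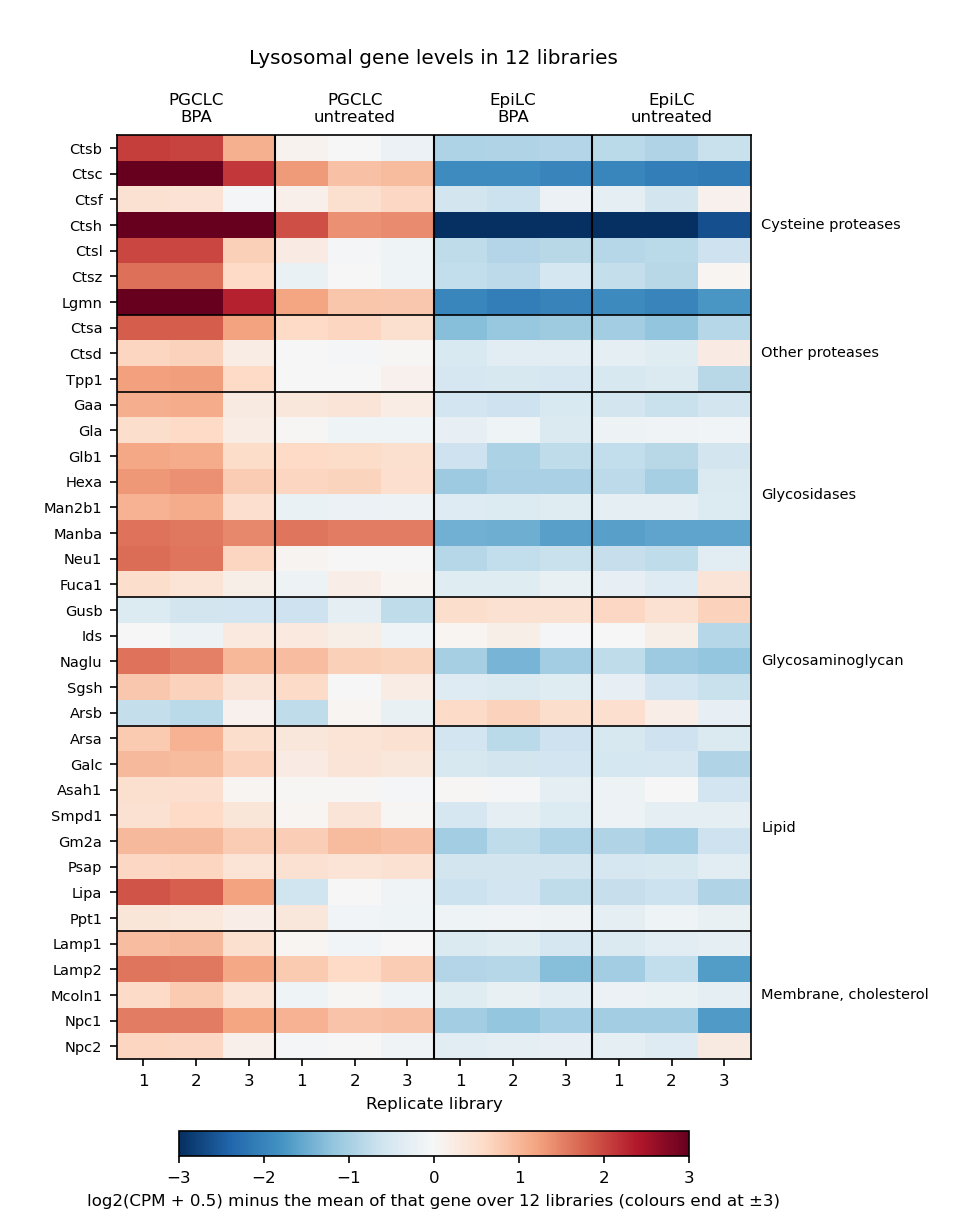
Heat map of the 36 genes (rows, grouped by role) in 12 libraries (columns, 3 replicates per group), coloured by log2(CPM + 0.5) minus the gene's mean over all libraries. Colours end at 3 log2 units above or below that mean. The rows of Ctsb, Ctsc, Ctsh, Ctsl, Ctsz, Lgmn and Lipa are reddest in the 3 BPA PGCLC libraries, while both EpiLC groups look alike. BPA PGCLC replicate 3 is paler in these rows except in Ctsh, which lies beyond the end of the colours in all 3 libraries.

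Cysteine proteases had the largest median change of the 6 role groups (1.82), with 6 of 7 higher in BPA PGCLCs, all 6 by more than 2-fold. Ctsh, an aminopeptidase cathepsin (mm10 chromosome 9, 90054152 to 90076089, plus strand), had 441, 443 and 196 CPM in BPA PGCLCs, against 37.7, 25.3 and 26.1 CPM in untreated PGCLCs. Every BPA library was above every untreated one, with a log2 change of 3.61 ± 0.33, or 12.2-fold (adjusted p = 0.00108). Lgmn, the asparaginyl endopeptidase that matures several cathepsins (chromosome 12, 102394084 to 102439813, minus strand), had 915, 886 and 459 CPM in BPA PGCLCs, against 210.3, 165 and 163 CPM in untreated PGCLCs. Its log2 change was 2.08 ± 0.25 (adjusted p = 0.00299), again without overlap. Ctsl, an endopeptidase (chromosome 13, 64359337 to 64370890, minus strand), was the most abundant member in CPM, with 1851, 1831 and 753 CPM in BPA PGCLCs, against 539, 437 and 420.3 CPM in untreated PGCLCs. Its lowest BPA library was less than 2-fold above the highest untreated one, and its change was 1.68 ± 0.31 (adjusted p = 0.0134). Its exons overlap the same-strand gene Gm49230 and an antisense gene.

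The remaining cysteine proteases divided into 3 that rose and 1 that did not pass the test. Ctsb, an endopeptidase and peptidyl-dipeptidase (chromosome 14, 63122462 to 63145923, plus strand), had 686, 666 and 342 CPM in BPA PGCLCs, against 175, 163 and 146 CPM in untreated PGCLCs (1.82 ± 0.24, adjusted p = 0.00411). Ctsc, a dipeptidyl peptidase that activates granule proteases of immune cells, had 274, 280.1 and 120 CPM in BPA PGCLCs, against 67.1, 50.9 and 53.4 CPM in untreated PGCLCs (1.99 ± 0.30, adjusted p = 0.00655). Ctsz, a carboxypeptidase, averaged 246 ± 89.5 CPM in BPA PGCLCs and 88.0 ± 6.28 CPM in untreated PGCLCs (SD; log2 change 1.50 ± 0.26, adjusted p = 0.0101). For all 3, the wide SD of the BPA group came with a low replicate 3, which still exceeded every untreated library. Ctsf, a cathepsin of low level here, averaged 10.8 ± 2.07 CPM in BPA PGCLCs and 11.9 ± 2.01 CPM in untreated PGCLCs, with overlapping libraries (−0.13 ± 0.20, adjusted p = 0.767).

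**Figure D2:**
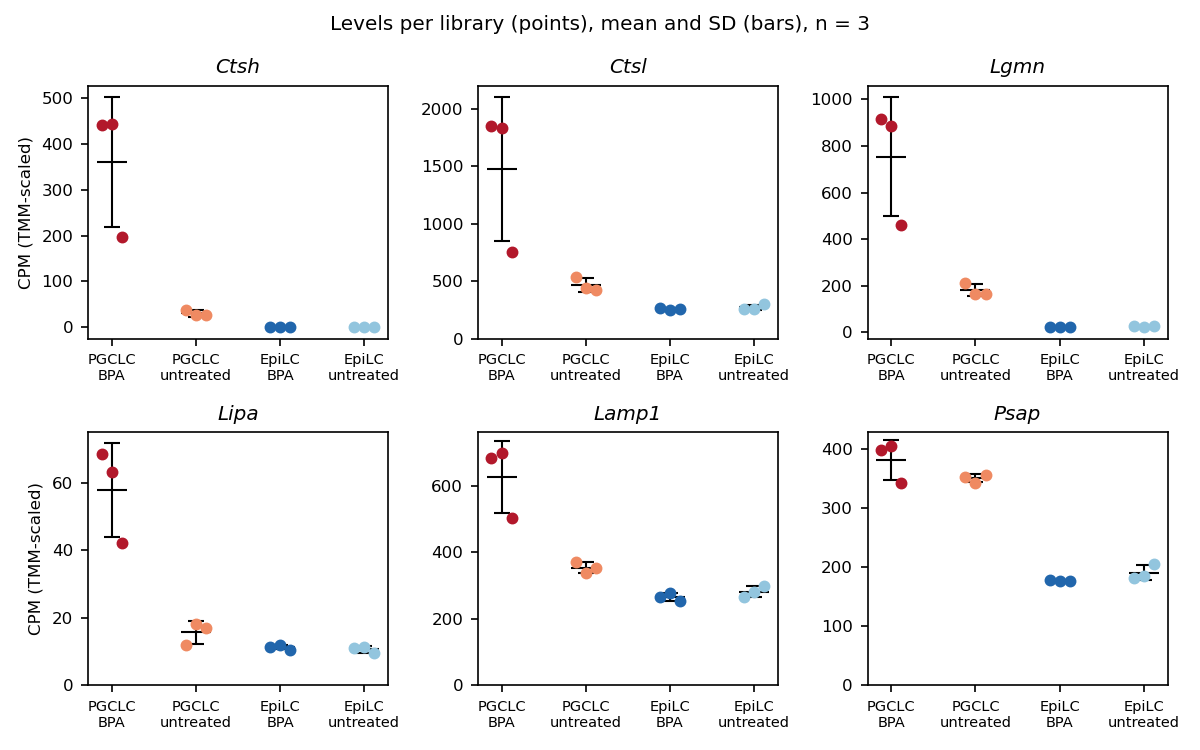
Levels of 6 lysosomal genes in CPM (linear axes), 1 point per library, with the mean and SD of 3 libraries as bars and groups from left to right BPA PGCLC, untreated PGCLC, BPA EpiLC and untreated EpiLC. Ctsh, Ctsl, Lgmn and Lipa are highest in BPA PGCLCs with replicate 3 below the other replicates, while Psap in BPA PGCLCs overlaps untreated PGCLCs and both PGCLC groups lie above both EpiLC groups.

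All 3 other proteases rose in BPA PGCLCs. Ctsa, the serine carboxypeptidase that stabilises Neu1 and Glb1 in a complex (chromosome 2, 164832873 to 164841032, plus strand), had 314, 316 and 207 CPM in BPA PGCLCs, against 134, 140.2 and 125 CPM in untreated PGCLCs (1.08 ± 0.16, adjusted p = 0.00563). Tpp1, a tripeptidyl peptidase, averaged 145 ± 34.6 CPM in BPA PGCLCs and 71.4 ± 3.55 CPM in untreated PGCLCs (1.04 ± 0.17, adjusted p = 0.0084). Ctsd, the main aspartic protease of the lysosome, averaged 139 ± 23.7 CPM in BPA PGCLCs and 95.1 ± 3.26 CPM in untreated PGCLCs (0.56 ± 0.12, adjusted p = 0.0242). The groups did not overlap for any of these 3 genes. The promoters of Ctsa and Ctsd are among those with TCACGTGA shown above.

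Among 8 enzymes of glycogen and oligosaccharide breakdown, 4 rose and 0 fell. Neu1, the lysosomal sialidase (chromosome 17, 34931253 to 34935953, plus strand), had 118, 112 and 57.8 CPM in BPA PGCLCs, against 38.8, 36.9 and 36.4 CPM in untreated PGCLCs (1.37 ± 0.24, adjusted p = 0.0118). Man2b1, an alpha-mannosidase, had 154, 163 and 107 CPM in BPA PGCLCs, against 65.3, 66.5 and 67.6 CPM in untreated PGCLCs (1.10 ± 0.15, adjusted p = 0.00422). Both genes were well separated between the groups. Hexa, the alpha subunit of beta-hexosaminidase, averaged 84.9 ± 18.3 CPM in BPA PGCLCs and 57.0 ± 3.47 CPM in untreated PGCLCs (0.59 ± 0.16, adjusted p = 0.0459). Gla, an X-linked alpha-galactosidase whose promoter is shown above, averaged 24.2 ± 3.12 CPM in BPA PGCLCs and 16.7 ± 1.23 CPM in untreated PGCLCs (0.55 ± 0.14, adjusted p = 0.0382). These 2 rises were smaller, and BPA replicate 3 of each lay near the untreated range. Gaa, the acid alpha-glucosidase of glycogen breakdown, gave 0.57 ± 0.21 (adjusted p = 0.108), beta-galactosidase gene Glb1 0.44 ± 0.16 (adjusted p = 0.105) and alpha-fucosidase gene Fuca1 0.36 ± 0.13 (adjusted p = 0.117). Manba, the beta-mannosidase, had 152, 148 and 134 CPM in BPA PGCLCs, against 149, 143 and 144 CPM in untreated PGCLCs (0.01 ± 0.07, adjusted p = 0.952). Its libraries overlapped entirely, in contrast to the alpha-mannosidase gene.

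None of the 5 enzymes of glycosaminoglycan breakdown passed the test in PGCLCs. Naglu, which removes N-acetylglucosamine from heparan sulfate, had 13.6, 12.4 and 8.68 CPM in BPA PGCLCs, against 8.16, 7.03 and 6.79 CPM in untreated PGCLCs (0.67 ± 0.21, adjusted p = 0.0696). These groups did not overlap, though the call was missed. Sgsh, the heparan sulfamidase, gave 0.41 ± 0.26 (adjusted p = 0.352) at a mean of 5.41 CPM in BPA PGCLCs and 4.09 CPM in untreated PGCLCs. Gusb, the beta-glucuronidase, gave 0.06 ± 0.14 (adjusted p = 0.854), and Ids, the X-linked iduronate sulfatase, gave −0.05 ± 0.17 (adjusted p = 0.899). Arsb, arylsulfatase B, was the least abundant member in PGCLCs, with 1.17, 1.06 and 2.49 CPM in BPA PGCLCs, against 1.11, 2.36 and 1.85 CPM in untreated PGCLCs (−0.16 ± 0.52, adjusted p = 0.890). At this level its SE was too wide to place the change on either side of 0. The summed level of the 5 genes was 57.3 to 63.5 CPM in BPA PGCLCs and 47.3 to 59.2 CPM in untreated PGCLCs, with overlap.

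Of 8 genes of lipid breakdown, 2 rose and 0 fell. Lipa, the acid lipase that frees cholesterol and fatty acids from lipoprotein lipids (chromosome 19, 34492318 to 34527474, minus strand), had 68.5, 63.2 and 42.1 CPM in BPA PGCLCs, against 11.8, 18.2 and 16.8 CPM in untreated PGCLCs. Its change of 1.91 ± 0.23, or 3.74-fold (adjusted p = 0.00274), was close to that of the cysteine proteases, and every BPA library was above every untreated one. Galc, the galactocerebrosidase, had 22.3, 21.9 and 18.3 CPM in BPA PGCLCs, against 13.4, 14.8 and 14.1 CPM in untreated PGCLCs (0.58 ± 0.13, adjusted p = 0.0279). Psap, the precursor of the saposin activator proteins, had 397, 405 and 341 CPM in BPA PGCLCs, against 353, 342 and 356 CPM in untreated PGCLCs (0.13 ± 0.07, adjusted p = 0.298). Psap was thus among the most abundant members and overlapped between the groups. Gm2a, a ganglioside activator protein gene, also overlapped, with a mean of 54.5 ± 4.23 CPM in BPA PGCLCs and 52.8 ± 3.63 CPM in untreated PGCLCs. The other 4 gave log2 changes of 0.41 ± 0.15 (Arsa, arylsulfatase A, adjusted p = 0.103), 0.37 ± 0.12 (Asah1, acid ceramidase, adjusted p = 0.0838), 0.32 ± 0.16 (Smpd1, acid sphingomyelinase, adjusted p = 0.225) and 0.25 ± 0.14 (Ppt1, palmitoyl-protein thioesterase, adjusted p = 0.302).

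All 5 genes of the lysosomal membrane and of cholesterol export rose, each by less than 2-fold. Lamp1, a major glycoprotein of the lysosomal membrane (chromosome 8, 13159161 to 13175338, plus strand), had 684, 698 and 503 CPM in BPA PGCLCs, against 370.4, 337 and 354 CPM in untreated PGCLCs (0.84 ± 0.12, adjusted p = 0.00562). Lamp2, its X-linked relative with a role in chaperone-mediated autophagy, had 137, 134 and 100.1 CPM in BPA PGCLCs, against 77.1, 67.8 and 76.1 CPM in untreated PGCLCs (0.76 ± 0.13, adjusted p = 0.00976). Mcoln1, a calcium channel of the lysosomal membrane, had 90.6, 106 and 81.0 CPM in BPA PGCLCs, against 55.7, 63.1 and 55.7 CPM in untreated PGCLCs (0.68 ± 0.12, adjusted p = 0.00966). The lowest BPA library exceeded the highest untreated library for all 3. Npc2, which hands cholesterol to the export protein Npc1, gave 0.57 ± 0.13 (adjusted p = 0.0281), and Npc1 gave 0.51 ± 0.11 (adjusted p = 0.0215). The promoters of Lamp1 and Mcoln1 shown above differ in the number of CACGTG matches, 4 and 2.

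**Figure D3:**
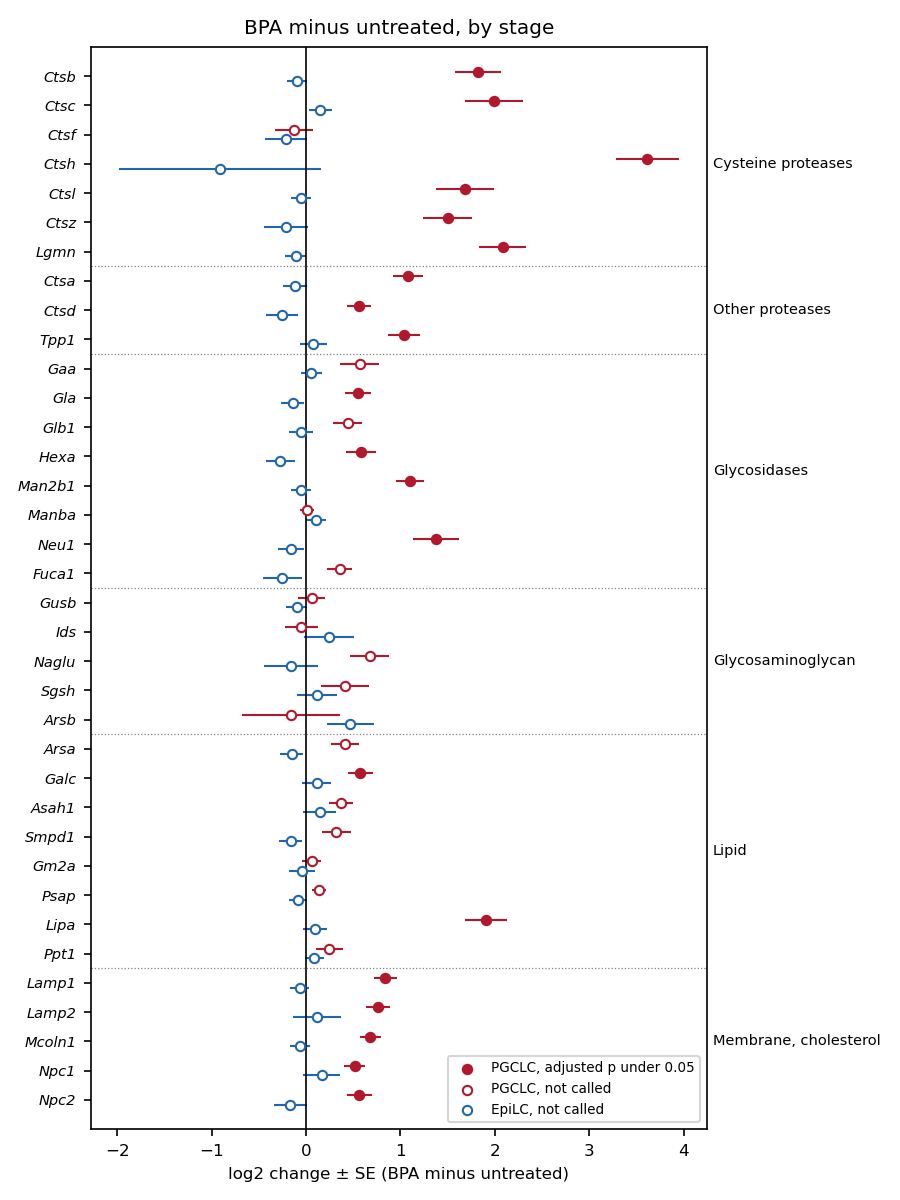
Log2 change ± SE (BPA minus untreated) of the 36 genes in PGCLCs (red) and in EpiLCs (blue), ordered by role, with filled points for an adjusted p under 0.05. The 20 filled points are all in PGCLCs and right of 0, from 0.51 for Npc1 to 3.61 for Ctsh, and the wide EpiLC bar is Ctsh.

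BPA PGCLC replicate 3 was the lowest of the 3 BPA libraries for all 20 members that rose, against 77.5% of the 1362 genes that rose in all. Its level divided by the mean of replicates 1 and 2 had a median of 0.664 over the 20 members and 0.800 over all risen genes. It was above every untreated PGCLC library for 20 of the 20, and for 1351 of the 1362 risen genes, which is a property of called genes and not of the members. Without it, 27 members were called higher, the 20 and also Gaa, Glb1, Fuca1, Naglu, Arsa, Asah1 and Psap (Psap by 0.21, adjusted p = 0.0154), and the change of Ctsl was 2.00 in place of 1.68. Any fit without BPA replicate 3 keeps only the close pair of replicates 1 and 2 as the BPA group, so its calls may rest on too small a spread. Without BPA replicate 1 or 2, 14 members were called higher, and without untreated replicate 1, 2 or 3, the numbers were 11, 10 and 10. Calls over all genes moved in the same fits, with 2321 in all libraries, 3206 without BPA replicate 3, 677 and 668 without BPA replicate 1 or 2, and 1243, 1110 and 891 without untreated replicate 1, 2 or 3. In these fits the 20 members kept their sign in 120 of 120 cases, 9 kept the call each time (Ctsa, Ctsb, Ctsc, Ctsh, Lamp1, Lgmn, Lipa, Man2b1 and Tpp1), and the lost calls had adjusted p between 0.0512 and 0.185.

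Markers of other cell types differed in the same PGCLC libraries. Of 20 visceral endoderm markers, 12 rose and 0 fell in BPA PGCLCs. Afp, a fetal plasma protein gene of this tissue, had 2527, 2486 and 1365 CPM in BPA PGCLCs, against 46.4, 24.5 and 29.2 CPM in untreated PGCLCs (6.01 ± 0.35, adjusted p = 0.000206). All 20 were listed in every BPA PGCLC library, and in untreated PGCLCs only Trf was unlisted in all 3 libraries. Replicate 3 was the lowest BPA library for this sum too. Of 6 tested macrophage and blood markers, 2 rose and 0 fell. They were Cd68, itself a lysosomal membrane protein, with 53.8, 51.2 and 19.7 CPM in BPA PGCLCs, against 14.2, 16.7 and 19.8 CPM in untreated PGCLCs, and Csf1r, with 8.22, 7.98 and 6.73 CPM in BPA PGCLCs, against 0, 1.68 and 0.573 CPM in untreated PGCLCs. For Cd68, BPA replicate 3 lay within the range of the untreated libraries. The 10 genes found of the 12 on this list summed to 41.2 to 64.4 CPM in BPA PGCLCs, against 16.1 to 21.7 CPM in untreated PGCLCs. Cd68 was the largest part of this sum in each of these libraries. The adaptor gene Tyrobp had 0.358, 0.333 and 0.877 CPM in BPA PGCLCs and was unlisted in every untreated PGCLC library. The pan-leukocyte marker Ptprc had 0.339 CPM in BPA replicate 3 and was unlisted in BPA replicates 1 and 2 and in every untreated PGCLC library. Fcer1g, on the same list, went the other way, with 0, 0 and 0.509 CPM in BPA PGCLCs, against 1.18, 0 and 0.319 CPM in untreated PGCLCs. The levels of Tyrobp, Ptprc and Fcer1g are all low and do not share a direction. Early germ cell markers went the other way, with 0 of 8 higher and 4 lower, Ifitm3 by −0.65 ± 0.12, Prdm14 by −0.63 ± 0.09 and Tfap2c by −0.41 ± 0.08 (adjusted p = 0.0151, 0.00545 and 0.0184). Their sum was 1084 to 1225 CPM in BPA PGCLCs and 1310 to 1488 CPM in untreated PGCLCs. Of 8 naive pluripotency markers, 0 rose and 4 fell, Tfcp2l1 by −0.45 ± 0.08 (adjusted p = 0.0120). Of 8 endothelial markers 0 rose and 2 fell, and of 8 trophoblast markers 2 rose and 1 fell. Of 6 tested mesoderm markers 1 rose and 1 fell, and of 7 formative epiblast markers 2 rose and 0 fell. The part of any of these in the lysosomal differences was not tested.

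**Figure D4:**
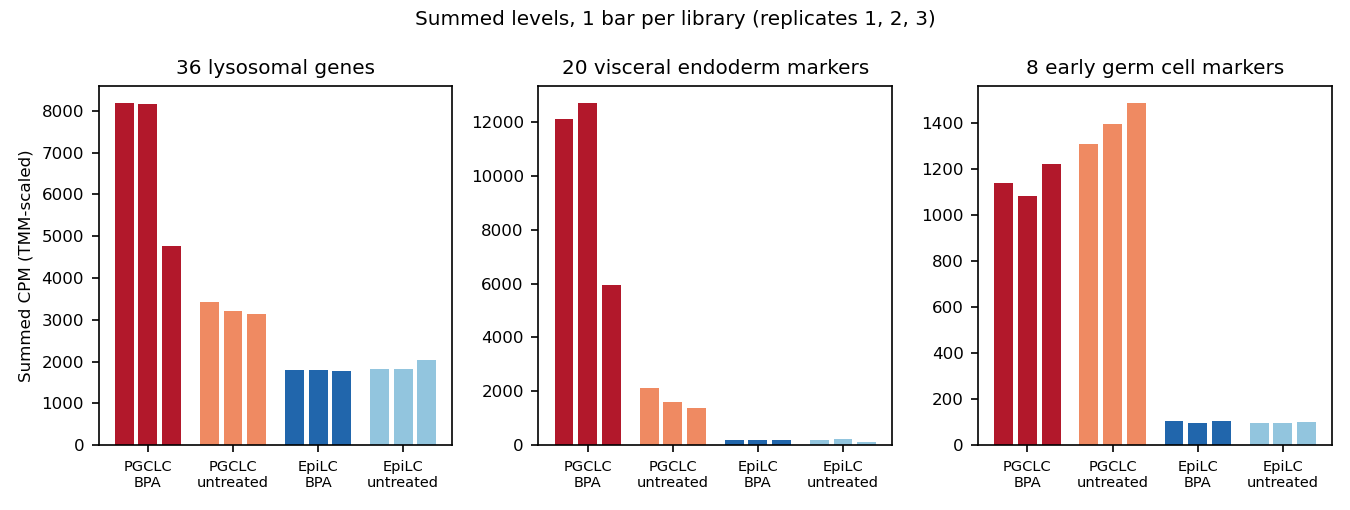
Summed CPM of the 36 lysosomal genes (left), 20 visceral endoderm markers (middle) and 8 early germ cell markers (right), 1 bar per library and linear axes starting at 0. BPA PGCLC replicate 3 has the shortest of the 3 BPA PGCLC bars in the left and middle panels (4763 and 5953 CPM) and the tallest in the right panel (1225 CPM).

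In EpiLCs, no member was called, nor was any of the 15252 genes tested (0%). At an unadjusted p under 0.05 there were 118 genes, none a member, and DESeq2 called 16 genes, none a member. The 118 are fewer than this threshold gives when no gene changes. The EpiLC test was thus strict, and a missing call does not show equal levels. The median member change was −0.07, and the summed level was 1798, 1791 and 1772 CPM in BPA EpiLCs, against 1818, 1815 and 2030 CPM in untreated EpiLCs. The smallest p among the members belonged to Arsb, with 3.59, 3.95 and 3.47 CPM in BPA EpiLCs, against 3.41, 2.65 and 1.81 CPM in untreated EpiLCs (0.47 ± 0.25, adjusted p = 0.943). Ctsl, the highest riser by amount in PGCLCs, had 268, 247 and 257 CPM in BPA EpiLCs, against 254, 259 and 297 CPM in untreated EpiLCs (−0.05 ± 0.10, adjusted p = 0.944). Lgmn had 23.6, 21.6 and 22.6 CPM in BPA EpiLCs, against 24.1, 23.0 and 27.1 CPM in untreated EpiLCs (−0.11 ± 0.11, adjusted p = 0.943). Both overlapped between the groups. Ctsh was near the limit of listing, with 11, 0 and 11 counts in BPA EpiLCs, against 11, 14 and 16 counts in untreated EpiLCs, so its EpiLC change (−0.91 ± 1.07) is poorly fixed.

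The difference between the BPA effect in PGCLCs and that in EpiLCs was tested as an interaction over 12 libraries. It was called for 11 members, all with the larger effect in PGCLCs, and for 0 members the other way, against 1.01% and 0.312% of 17608 genes tested. The median over the members was 0.67, and 0.01 over all genes. Lgmn differed by 2.19 ± 0.31 (adjusted p = 0.00569), Ctsb by 1.92 ± 0.29 (adjusted p = 0.0087) and Lipa by 1.81 ± 0.29 (adjusted p = 0.0100). These 3 kept the call whichever library was left out. The other 8 were Ctsa, Ctsc, Ctsh, Ctsl, Lamp1, Man2b1, Mcoln1 and Neu1, and each lost the call without at least 1 library. The number called ranged from 3 without BPA EpiLC replicate 1 to 18 without BPA PGCLC replicate 3, and with untreated EpiLC replicate 3 left out it was 13. For Ctsz (1.71 ± 0.39, adjusted p = 0.0602) and Tpp1 (0.96 ± 0.23, adjusted p = 0.0747) the difference did not pass the test, which does not show that the effects were alike.

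PGCLCs had more lysosomal transcripts than EpiLCs in both arms, which use different libraries. Among BPA cells, 33 members were higher in PGCLCs and 2 lower (Gusb and Arsb), against 32.5% higher and 25% lower of 17608 genes tested. Among untreated cells, 24 members were higher in PGCLCs and 1 lower (Gusb), against 30.4% and 25.2% of the same genes. The median member difference was 1.49 in BPA cells and 0.73 in untreated cells, against 0.13 and 0.07 over all genes. With RLE scaling, 33 members were higher in BPA cells and 20 in untreated cells, where Lamp1, Lipa, Neu1 and Smpd1 lost the call. The 24 members higher in untreated PGCLCs were all among the 33 of the BPA arm (100% and 72.7% of the lists). With 33 of 36 members called higher in the BPA arm, an overlap near this size is largely set by the list sizes. The same share over all genes is not given here. The 9 that passed the test in BPA cells and not in untreated cells were Asah1, Ctsd, Ctsz, Fuca1, Gla, Man2b1, Mcoln1, Npc2 and Ppt1. The interaction given above is also the test of the difference between the arms, and it was called for 2 of these 9, Man2b1 and Mcoln1. Stage and library naming scheme run together here and cannot be told apart. Visceral endoderm markers were also higher in PGCLCs, 19 of 20 in BPA cells and 17 of 20 in untreated cells, and their part was not tested.

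Ctsh had the largest stage difference. It had 196 to 443 CPM in BPA PGCLCs and 25.3 to 37.7 CPM in untreated PGCLCs, against 0 to 0.618 CPM in BPA EpiLCs and 0.493 to 1.11 CPM in untreated EpiLCs. In untreated cells the log2 difference was 5.38 ± 0.47 (adjusted p = 1.82e-06). Ctsc differed by 5.04 ± 0.30 in BPA cells and by 3.20 ± 0.28 in untreated cells, and Lgmn by 5.06 ± 0.25 and 2.86 ± 0.23.

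Several members that did not pass the test between BPA and untreated PGCLCs differed between the stages. Manba had 134 to 152 CPM in BPA PGCLCs and 143 to 149 CPM in untreated PGCLCs, against 15.5 to 17.7 CPM in BPA EpiLCs and 15.4 to 16.1 CPM in untreated EpiLCs. Its stage difference was 3.10 ± 0.10 in BPA cells (adjusted p = 6.84e-10) and 3.19 ± 0.10 in untreated cells (adjusted p = 7.96e-10). Gm2a differed by 1.84 ± 0.13 and 1.73 ± 0.13, and Psap by 1.10 ± 0.09 and 0.88 ± 0.09. In these 3 genes, the 2 PGCLC groups lay together, well above both EpiLC groups. Gusb ran against the rest, at 24.5 to 27.5 CPM in BPA PGCLCs and 21.2 to 29.5 CPM in untreated PGCLCs, against 49.9 to 52.9 CPM in BPA EpiLCs and 50.2 to 59.4 CPM in untreated EpiLCs. It was lower in PGCLCs by −0.99 ± 0.13 in BPA cells (adjusted p = 3.96e-05) and −1.16 ± 0.13 in untreated cells (adjusted p = 1.39e-05). Arsb was called lower in BPA cells (−1.21 ± 0.41, adjusted p = 0.0255), a call lost without any 1 of 5 of the 6 libraries, and gave −0.57 ± 0.41 in untreated cells (adjusted p = 0.260).

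**Figure D5:**
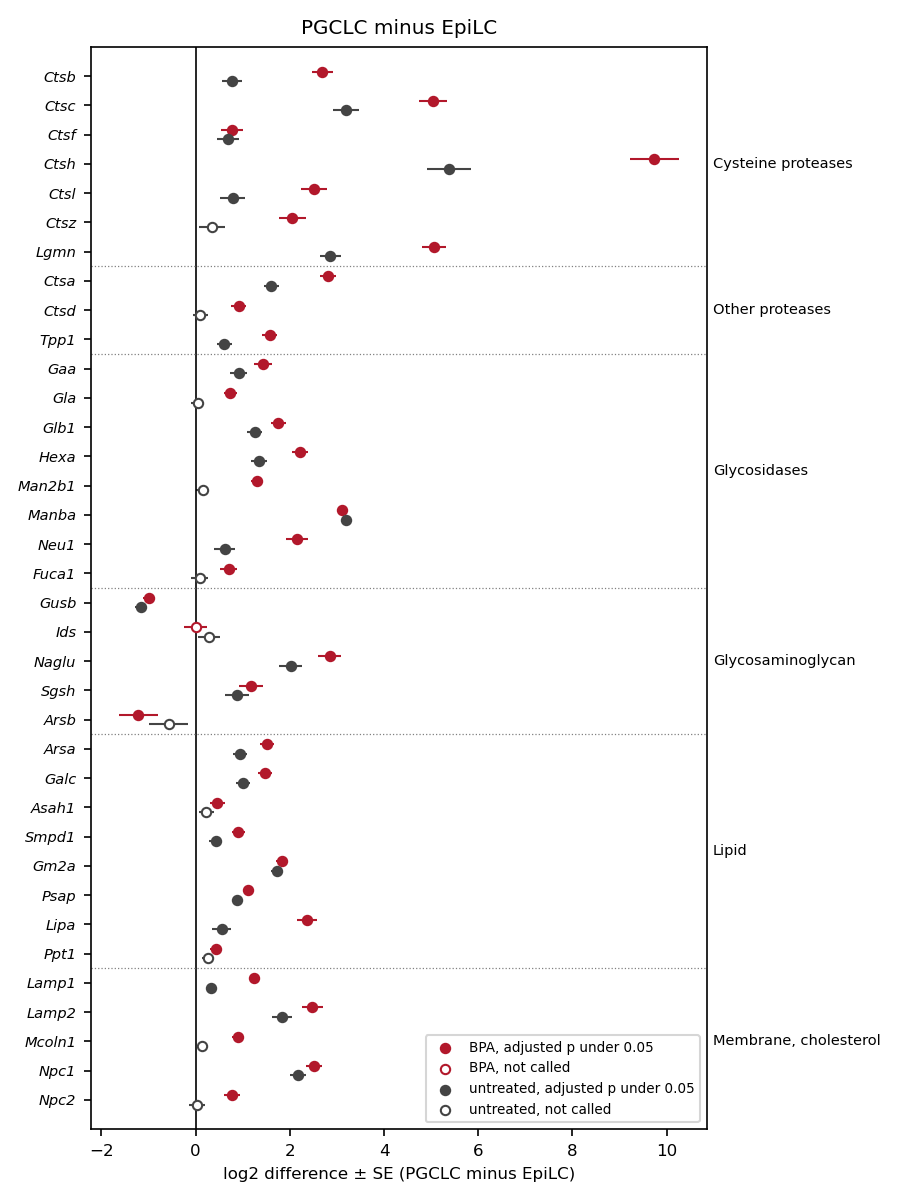
Log2 difference ± SE (PGCLC minus EpiLC) of the 36 genes among BPA libraries (red) and among untreated libraries (grey), ordered by role, with filled points for an adjusted p under 0.05. Gusb and Arsb lie left of 0 in both arms, and Ctsc, Ctsh, Lgmn and Manba lie farthest right among untreated libraries.

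Leaving out untreated EpiLC replicate 3, the library with the high ribosomal share, gave 22 members higher and 1 lower in the untreated stage comparison. Leaving out any other library of that comparison gave 18 to 21 higher and 1 lower. In the BPA arm the range was 31 to 33 higher and 1 to 2 lower. Calls lost in the untreated arm were those of Ctsf, Ctsl, Lamp1, Lipa, Neu1 and Smpd1, with adjusted p up to 0.129.

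Per kilobase of the longest principal transcript, Lamp1 ranked first in untreated PGCLCs (159 CPM per kb), in BPA EpiLCs (119 CPM per kb) and in untreated EpiLCs (126 CPM per kb). All ranks here depend on that choice of length. Ctsl was given 6168 bases, against 2229 for Lamp1 and 1990 for Lgmn. With a shorter transcript Ctsl could rank above both. In BPA PGCLCs the first 5 were Lgmn (379 ± 128 CPM per kb), Lamp1 (282 ± 48.9), Ctsl (239.7 ± 102), Ctsh (223 ± 87.8) and Ctsz (171 ± 62.1). Each gap between neighbours in this order is smaller than the larger SD of the pair. These SDs include the drop of BPA replicate 3 that the 5 genes share, so they do not tell how firm the order is. Psap was second in every other group and sixth in BPA PGCLCs, with 143 CPM per kb in BPA PGCLCs and 132 CPM per kb in untreated PGCLCs. Ctsh ranked 36 of 36 in both EpiLC groups, 20 in untreated PGCLCs and 4 in BPA PGCLCs. Lgmn ranked 1 in BPA PGCLCs and 3 in untreated PGCLCs, against 16 in BPA EpiLCs and 15 in untreated EpiLCs. Arsb ranked last in both PGCLC groups.

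Other genes of lysosome biology were counted by list in BPA PGCLCs, against 8.13% of all tested genes called higher and 5.72% called lower. Of 31 tested genes for other lysosomal proteins, 9 rose and 0 fell, among them Galns, a galactosamine sulfatase gene (1.11 ± 0.16, adjusted p = 0.00517), and the acid phosphatase gene Acp5 (1.04 ± 0.28, adjusted p = 0.0474). Their median change was 0.37. Of 13 genes for sorting of lysosomal enzymes, 3 rose and 0 fell: Cln6 (0.96 ± 0.15), the phosphotransferase subunit gene Gnptab (0.80 ± 0.13) and the adaptor gene Gga2 (0.59 ± 0.12). Of 16 subunit genes of the v-ATPase, the pump that acidifies the lysosome, 2 rose and 0 fell, Atp6v0a1 by 1.34 ± 0.27 (206, 207 and 97.3 CPM in BPA PGCLCs, against 76.3, 67.3 and 59.7 CPM in untreated PGCLCs) and Atp6v1b2 by 0.33 ± 0.07. The pump subunits' count is near that of all genes, and their median change was 0.05. Of 17 autophagy genes, 3 rose and 0 fell: Gabarapl1 (0.91 ± 0.19), the receptor gene Sqstm1 (0.88 ± 0.19) and Map1lc3b (0.61 ± 0.13). Of 17 genes for TFEB-type factors and lysosomal nutrient sensing, 0 rose and 4 fell. The largest fall was that of Lamtor4 (−0.68 ± 0.17, adjusted p = 0.0375), followed by Rragd (−0.50 ± 0.13, adjusted p = 0.0400) and Lamtor2 (−0.42 ± 0.11, adjusted p = 0.0459), all genes of the complex that ties mTORC1 to the lysosome. In EpiLCs 0 genes of these 5 lists were called.

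Between the stages the same 5 lists divided as follows, beside 32.5% of all genes higher and 25% lower in BPA cells, and 30.4% higher and 25.2% lower in untreated cells. In BPA cells, PGCLCs were higher for 27 of 31 other lysosomal genes, 8 of 13 sorting genes, 8 of 16 v-ATPase genes, 11 of 17 autophagy genes and 9 of 17 genes for TFEB-type factors and nutrient sensing, and lower for 0, 0, 1, 2 and 4. In untreated cells, PGCLCs were higher for 19, 7, 4, 6 and 10 and lower for 1, 1, 3, 1 and 5 in the same order. The untreated counts of the v-ATPase and autophagy lists are near the share of all genes called higher. Among these lists, the genes for which the interaction was called higher include Galns and Cln6, and it was called lower for 0 genes.

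The 32 members with a promoter entry divided as follows by the CACGTG letters. In BPA PGCLCs, 7 of 13 members with the letters rose, against 10 of 19 without them, and the median log2 change was 0.57 in each set. The 4 members with TCACGTGA, whose promoters are shown above, all rose in BPA PGCLCs, as did 13 of the 28 without it, and the median log2 changes were 0.62 and 0.57. Ctsd and Gla each kept the call in 1 of 6 fits with a library left out. Of the 4, 1 gene, Ctsa, was higher in untreated PGCLCs than in untreated EpiLCs. Ctsb and Ctsh, among the strongest risers, had no entry in the promoter table.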

How the data were processed

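The 12 mRNA libraries of EpiLCs and PGCLCs were analysed as 4 groups of 3, with groups taken from the sample titles. Per the labels' protocols, libraries were strand-specific (Nugen Universal Plus mRNA-Seq kit). Per the submitters' processing notes, STAR, HTSeq, FastQC and bcl2fastq (2.19.1.403) were used with mm10. The deposited files give counts of whole reads by Ensembl gene. No listed gene has under 10 counts, and unlisted genes were read as 0. Summary rows, which name no gene, were left out: no feature (4.42% to 10.7%), ambiguous (4.35% to 6.07%) and, in 4 BPA libraries, not uniquely aligned (0.455% to 9.82%). The deposited CPM tables, normalised by the authors for each stage, equal the counts divided by 1 constant per library and served only in an alternative. GENCODE M21 gave symbols, coordinates and the lengths behind levels per kb (21695 of 21728 IDs matched). Where a gene had several principal transcripts, the longest was used.

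Genes passing filterByExpr were scaled by TMM, and edgeR 4.0.16 (R 4.3.3) gave quasi-likelihood p-values, with Benjamini-Hochberg adjustment over all genes tested and a threshold of 0.05. BPA effects were fitted on the 6 libraries of each stage, and stage differences and the interaction on all 12 with 4 group means. The SE was computed as |log2 change| / sqrt(F). Members, gene lists and tests were chosen with earlier results of these data known. All 36 members could be named, and from each other list up to 3 called genes with the largest absolute change. Of these genes, 1 is not reported here. A few marker genes outside this rule (Ptprc, Tyrobp, Fcer1g) were named after their values were seen. The test was tried on simulated data. Samples with the same replicate number in a stage did not deviate together (correlations of −0.016 to 0.056), so the numbers were not taken as pairs. The alternatives tried were no filter, 1 CPM in 3 libraries, library size alone, RLE factors, DESeq2 1.42.0, limma 3.58.1 voom, limma-trend on log2(CPM + 1), unlisted genes as 9 counts, ribosomal protein genes left out, a replicate block, another number of libraries in the fit, and each library left out in turn.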

Additional observations from a re-analysis of the deposited data

Results flagged for a closer look

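For 11 members the BPA effect in PGCLCs differed from the BPA effect in EpiLCs by edgeR's interaction test over 12 libraries. The difference of the log2 changes (PGCLC minus EpiLC) was 4.36 for Ctsh, 2.19 for Lgmn, 1.92 for Ctsb, 1.84 for Ctsc and 1.74 for Ctsl, all cysteine protease genes. It was 1.81 for Lipa, 1.53 for Neu1, 1.20 for Ctsa, 1.16 for Man2b1, 0.91 for Lamp1 and 0.75 for Mcoln1. The value of Ctsh rests on EpiLC libraries with 0 to 16 counts. Over all genes, the interaction called 1.01% higher and 0.312% lower.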

How the results depend on the processing

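In BPA EpiLCs DESeq2 called 16 genes against 0 with edgeR. In BPA PGCLCs, leaving out 1 library gave 668 to 3206 genes called over all genes (2321 with all), 10 to 27 members higher and a median member change of 0.471 to 0.709. The other alternatives gave 16 to 24 members higher, none moving the count by over 1.5 times. Members near 0 changed sign: Manba was −0.00676 with unlisted genes as 9 counts and −0.00225 in 1 fit of 12 libraries, and with 1 library left out the ranges were −0.0281 to 0.0683 for Manba, −0.27 to 0.029 for Ctsf, −0.056 to 0.19 for Gusb, −0.18 to 0.051 for Ids, −0.65 to 0.093 for Arsb and −0.00943 to 0.13 for Gm2a. In the untreated stage comparison the median was 0.97 with unlisted genes as 9 counts. Gla was −0.0226 with RLE factors and −0.0215 with DESeq2, and Npc2 −0.038 with each. With 1 library left out, Ctsd ranged over −0.011 to 0.26, Gla over −0.018 to 0.075, Fuca1 over −0.0637 to 0.31, Ids over −0.0097 to 0.50 and Npc2 over −0.092 to 0.22. In the BPA stage comparison, 1 member was lower and the median was 1.78 with unlisted genes as 9 counts, and 1 library left out gave 1 to 2 lower and a median of 1.404 to 1.649. Ids was 0.0063 with voom, 0.28 with unlisted genes as 9 counts, 0.019 with the replicate block, 0.000747 in 6 libraries and −0.14 to 0.10 with 1 library left out. The interaction called 897 genes with DESeq2, 141 with voom, 519 with unlisted genes as 9 counts, 150 with the replicate block and 83 to 767 with 1 library left out, against 232. Voom called it for 6 members, and 1 library left out gave 3 to 18. With the replicate block, 18 members were higher in BPA PGCLCs and 8 had a called interaction. The cause of these differences was not tested. Of the 36 BPA changes, that of Arsb in PGCLCs and that of Ctsh in EpiLCs, both at low counts, had the widest SE of their stage (0.52 and 1.07).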
